A study of Mus musculus with 4 samples.

Results

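The semaphorin, plexin and ephrin guidance genes were taken as the protein-coding genes on chromosomes 1 to 19 whose RefSeq symbol begins with Sema or Plxn, or with Epha, Ephb, Efna or Efnb and a number. That gave 48 of 20665 such genes. They comprised 20 semaphorins, 7 plexins, 14 Eph receptors and 7 ephrins. For each gene the deposited regions that overlapped its body or the 2000 bp on either side were collected. These came to 95 of the 39231 regions in the list, and no region was shared between 2 members.

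The data came from satellite cells, the stem cells of skeletal muscle, taken from hindlimb muscle of 9-week-old mice and cultured for 3 days on Matrigel. Control mice received oil, and Uhrf1-deficient mice received tamoxifen on 5 consecutive days (150 µl of 20 mg/ml) to induce Cre recombination in satellite cells. Uhrf1 brings the maintenance DNA methyltransferase to newly replicated DNA. The alleles of either group, the Cre driver, the deleted interval and the number of pooled animals are not given in the sources used here. MBD2 binding split the DNA into methylated and non-methylated fractions, giving 4 libraries in 4 groups of 1, and the region list compares the oil with the tamoxifen library. It was read as the comparison of the methylated fraction, which its header does not state. Each region is a place where the oil library exceeded the scaled tamoxifen library. With 1 library per group there is no estimate of the spread between mice and no test, and a difference due to Uhrf1 cannot be told apart from one due to tamoxifen itself, to the mice or to the handling of either culture. The list holds no expression values. Of the satellite cell and myogenic genes Pax7, Myf5, Myod1, Myog, Cdh15 and Calcr, only Calcr carried a region. Of markers of other cell types a region was held by 2 of 3 fibro-adipogenic, 2 of 3 endothelial, 2 of 2 immune and 1 of 2 glial genes, and 47.1% of all protein-coding genes held one. A region in a gene does not measure its expression, so these counts do not check the identity of the cells.

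Semaphorins are secreted or membrane-bound cues that are read by plexins, and class 3 semaphorins use neuropilins as co-receptors. Ephrins are anchored in the membrane and bind Eph receptor tyrosine kinases on neighbouring cells. A-type ephrins hold to the membrane by a lipid anchor and B-type ephrins span it. Both systems steer axons, vessels and migrating cells by acting on the cytoskeleton and on adhesion. In muscle, satellite cells are known to secrete Sema3a, and Eph signalling acts in their migration and in the matching of nerve to fibre.

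The start sites of 42 members could be placed from RefSeq promoter windows (GRCm38.p6), which run from 250 bases before a start to 50 after it. No member had a region over such a window, and among all 16457 genes with a placed start the share was 0.863%. Upstream stretches of 5 members are shown to give the CpG content at these starts beside where the regions lay. CpG, in capitals, is the dinucleotide that can carry the methyl group, and MBD2 binds its methylated form. Each run is the 250 bases before the outermost start, 5′ to 3′ on the gene's strand.

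Efna3, chr3:89322940-89323189, minus strand, was chosen as the member with a region closest to a start. It has 19 CpGs, and its region began 532 bp upstream of the start, beyond the stretch shown.
Efna3: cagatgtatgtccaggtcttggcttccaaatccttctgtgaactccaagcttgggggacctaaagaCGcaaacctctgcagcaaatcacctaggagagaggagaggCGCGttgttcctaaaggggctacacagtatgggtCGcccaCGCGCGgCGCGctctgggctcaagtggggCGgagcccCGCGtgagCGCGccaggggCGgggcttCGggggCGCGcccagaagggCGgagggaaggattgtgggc
Efna2, chr10:80179232-80179481, plus strand, has 25 CpGs and the highest number of regions for its length, the nearest 3461 bp downstream of the start.
Efna2: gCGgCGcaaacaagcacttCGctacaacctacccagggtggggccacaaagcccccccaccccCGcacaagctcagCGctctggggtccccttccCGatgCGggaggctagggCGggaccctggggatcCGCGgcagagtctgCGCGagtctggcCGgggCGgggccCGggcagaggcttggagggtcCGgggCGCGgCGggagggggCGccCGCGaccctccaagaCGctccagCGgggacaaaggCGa
Sema6b, chr17:56140344-56140593, minus strand, has 20 CpGs, and both of its regions lay at the opposite end of the gene.
Sema6b: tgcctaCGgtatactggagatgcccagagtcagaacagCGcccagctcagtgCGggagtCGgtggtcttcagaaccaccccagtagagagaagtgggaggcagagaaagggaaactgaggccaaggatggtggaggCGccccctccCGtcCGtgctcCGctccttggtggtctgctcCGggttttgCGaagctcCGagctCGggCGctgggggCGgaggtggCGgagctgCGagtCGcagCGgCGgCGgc
Sema3c, chr5:17574566-17574815, plus strand, is the richest in CpG of the 19 stretches that could be cut this way, with 39, and had its nearest region 107680 bp away.
Sema3c: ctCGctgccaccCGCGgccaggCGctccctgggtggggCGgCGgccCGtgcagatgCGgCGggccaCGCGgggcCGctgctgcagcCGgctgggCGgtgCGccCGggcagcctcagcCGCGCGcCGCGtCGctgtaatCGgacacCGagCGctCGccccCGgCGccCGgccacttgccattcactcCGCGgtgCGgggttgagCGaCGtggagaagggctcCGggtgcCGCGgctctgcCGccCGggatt
Sema4a, chr3:88461183-88461432, minus strand, is the poorest, with 2 CpGs, and had no region. It has 4 placed starts, and the richest of their windows held 14 CpGs.
Sema4a: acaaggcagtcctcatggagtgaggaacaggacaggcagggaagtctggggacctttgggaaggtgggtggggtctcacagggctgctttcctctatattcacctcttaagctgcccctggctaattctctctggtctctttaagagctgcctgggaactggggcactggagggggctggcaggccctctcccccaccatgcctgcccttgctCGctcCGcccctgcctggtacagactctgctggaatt

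Over the whole 300-base windows, the members' CpG count ran from 2 to 56 with a median of 23, against a median of 15 for all genes with a placed start. Because no member had a region over a start window, the stretches shown held none whatever their CpG content. They cannot relate CpG content to regions. The list does not tell apart starts that were unmethylated in both libraries, unchanged, or too thinly covered.

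Regions were found in 33 of the 48 guidance genes (68.8%), against 47.1% of all protein-coding genes on the same chromosomes. The members were longer than other genes, with a median of 38.0 kb against 17.5 kb, and long genes meet a region more often. Of 20 members of 100 kb or more, 17 had a region (85.0%), beside 87.5% of all genes of that length. Of 14 members between 20 and 100 kb, 9 did (64.3%), beside 63.0%. Thus the 2 longer classes were near their background. Of 14 members under 20 kb, 7 did, beside 28.3%. These 7 short genes were Efna2, Efna3, Epha1, Ephb3, Sema3b, Sema4c and Sema6b. The 14 short members were 4.64 to 18.7 kb long, and lengths within the class were not matched to those of all short genes. With a limit on q of 1e-10 in place of 1e-04, 30 members (62.5%) still had a region, against 43.2% of all genes, and the 3 that did not were Plxnd1, Sema3e and Sema3f.

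**Figure D1:**
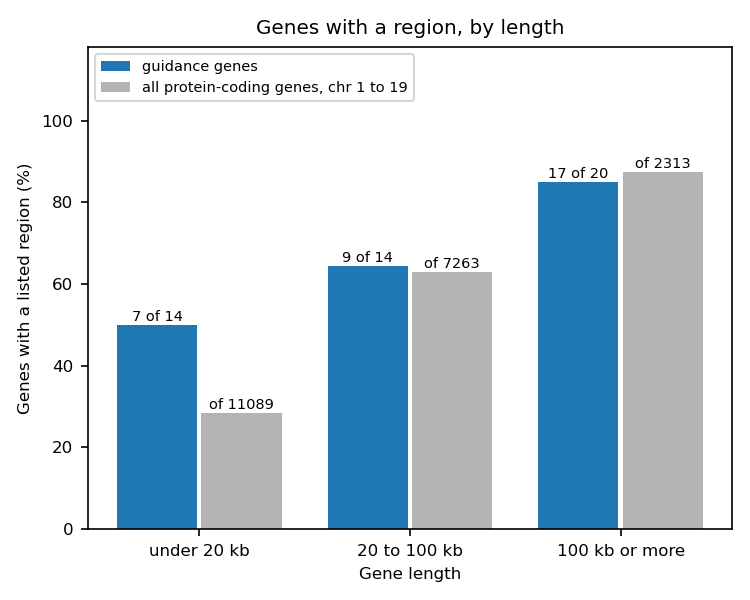
Share of genes with at least 1 listed region (%, vertical axis) by gene length, for guidance genes (blue) and all protein-coding genes of chromosomes 1 to 19 (grey). The bars are close at 20 to 100 kb and at 100 kb or more, and stand apart under 20 kb, where 7 of 14 members had a region. Lengths were not matched within a class.

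The regions took up little of the genes. Counted over gene bodies with their flanks, members held 1.37 regions per 100 kb and all protein-coding genes 2.33. In members of 100 kb or more the density was 1.02 against 1.62. It was 3.79 against 3.14 in those of 20 to 100 kb, and 5.69 against 3.44 in those under 20 kb. Of the 33 members with regions, 10 had 1, 19 had 2 to 4, and 4 had 5 or more. The last were Ephb2 with 11, Ephb1 with 9, Efna5 with 7 and Ephb4 with 5, together 33.7% of the regions. The regions were 201 to 762 bp wide with a median of 244 bp.

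After duplicate removal the oil library held 19534328 tags (aligned reads) and the tamoxifen library 25614791. Over the summits of the 95 regions the oil library had 16 to 184 tags (median 48) and the tamoxifen library 2 to 86 (median 14). The fold is the authors' own value, the oil tags plus 1 over the tamoxifen tags scaled by library size plus 1. Where the tamoxifen library had 2 or fewer tags the caller put the genome mean in their place, so the 3 such member folds (Sema4c, Plxnc1 and Epha8) are lower bounds. It ran from 2.02 to 9.35, with a median of 4.22 and quartiles of 3.60 and 5.56. In the 24224 regions over all protein-coding genes the median was 4.71, with quartiles of 3.77 and 5.99. Over members the scaled tamoxifen signal was a median of 21.0% of that in oil, and between 8.67% and 48.6% in the 92 single regions with counted tamoxifen tags. In the other 3 it was at most 5.65% (Sema4c), 6.63% (Plxnc1) and 9.53% (Epha8). A fold of 4 or more was listed for 60 regions (63.2%, against 68.9% over all genes), and a fold under 3 for 11 (11.6% against 8.44%). Listed folds of 8 or more were found in 4 of the 48 members, Efna5, Sema4c, Sema4d and Sema5b, and 7.89% of all genes had such a region. Those gene shares were not matched for length. Counted by region, 4 of the 95 (4.21%) had such a fold, against 7.36% over all genes. The members' folds thus lay at or slightly under those of other genes, and the difference has no test.

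**Figure D2:**
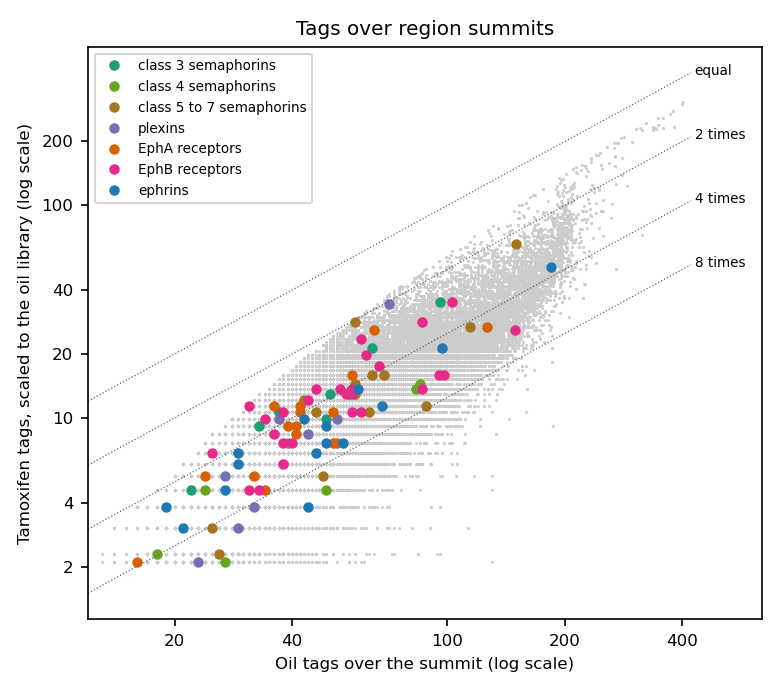
Oil tags (horizontal axis) and library-scaled tamoxifen tags (vertical axis), both on log scales, over the summit of each region. Regions with 2 or fewer tamoxifen tags are drawn at the caller's genome mean. Coloured points are the 95 regions of guidance genes and grey points all 39231 regions, with dotted lines where oil is equal to or 2, 4 or 8 times tamoxifen. The members lie inside the grey cloud, and all of them below the equal line.

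Among the ligands, the class 3 semaphorins are the secreted ones. Regions were present in 6 of 7, but with only 8 regions over genes with a median length of 155 kb, or 0.694 per 100 kb. All 8 had folds between 2.69 and 4.58, each below the 4.71 median of regions over genes. Sema3a, the axon repellent that satellite cells secrete, had 2 regions in 479 kb (chromosome 5, 13124822 to 13603485). One (13226711 to 13226919) had 64 tags in oil and 28 in tamoxifen, a fold of 2.91, and the other (13574771 to 13574974) 50 and 17, a fold of 3.65. The first lay 169865 bp upstream of the start that RefSeq places inside the annotated gene. Sema3d had the strongest region of the class, with 49 against 13 tags (12563167 to 12563408, fold 4.58, 95% counting limits of the tag ratio 2.64 to 9.93). Sema3c had 2 regions, of 2.69-fold (96 against 46 tags) and 3.35-fold (33 against 12). Sema3e had 1 of 3.25-fold (37 against 14). These 4 genes lie on chromosome 5 between 12383161 and 17730268, and none of their regions reached a fold of 5. On chromosome 9, Sema3b had a region of 4.08-fold near a gene end (107599040 to 107599247, 56 against 17 tags), and its neighbour Sema3f one of 4.13-fold inside the gene (22 against 6). Sema3g had none.

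Class 4 semaphorins are membrane proteins with roles in immune cells, vessels and nerve. Regions were present in 3 of 6, and all 6 regions had folds of 4.48 or more, with a median of 5.74 against 3.50 in class 3. The median of oil tags was 38.0 against 49.5 in class 3, and the difference in fold was not tested. Sema4d, which binds Plxnb1, held 4 of the 6 regions. Its strongest (chromosome 13, 51708149 to 51708423) had 49 tags in oil and 6 in tamoxifen, a fold of 8.97 (limits 4.58 to 30.6), and its neighbour 4457 bp away (51703383 to 51703691) had 83 and 18, a fold of 5.70. The other 2, of 4.48-fold and 5.78-fold, lay toward the opposite end, 28921 and 33085 bp upstream of the nearest placed start. In Sema4c a single region, at 36552693 to 36553130 of chromosome 1, had 27 tags in oil and 2 or fewer in tamoxifen. Its fold of 9.03 therefore rests on the genome mean that the caller uses as its lowest background, and would be 11.1 with exactly 2 tags. The lower limit of the tag ratio was 4.45. Sema4b had 1 of 5.55-fold (85 against 19 tags) 437 bp inside its far end. Here the far end is the one opposite the start. Sema4a, Sema4f and Sema4g had none.

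Sema4a, with roles in T cells, marked the edge of the rule. A region of 311 bp on chromosome 3 (88433637 to 88433947) lay 2012 bp past its far end and so just outside the 2000 bp flank. With 96 tags in oil and 3 in tamoxifen, its fold of 29.5 (limits 13.9 to 207) ranked 2 among all 39231. No gene of the table overlapped it. Just inside the flank, the Ephb2 region 1628 bp beyond that gene's boundary had 36 and 11 tags, a fold of 3.94.

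The class 5, 6 and 7 semaphorins are anchored in the membrane. Regions were present in 5 of 7, 15 in all, with a median fold of 4.15 and the lowest and some of the highest values among members. Sema5b had 3 regions. In order from the start they had 69 against 21 tags (fold 4.11), 52 against 10 (6.14) and 26 against 3 (8.21, limits 3.48 to 58.7), the last at chromosome 16, 35661054 to 35661405. The limits of the first (2.61 to 7.40) and last overlapped. Sema5a had 4, of 3.82-fold to 6.42-fold, across 452 kb, the first of them 5049 bp downstream of the start. Sema6a had 3 regions on chromosome 18, with folds of 3.33 (43 against 16 tags), 5.48 (63 against 14) and 7.73 (48 against 7, limits 4.05 to 23.6). Sema6b had 2 at its far end. The stronger (chromosome 17, 56123401 to 56123928) had 88 tags in oil and 15 in tamoxifen, a fold of 7.15 (limits 4.42 to 14.3), and the other, 1726 bp from that end, 46 and 14 (4.03). Sema6d, 578 kb long, stood at the low end. Its 3 regions had 150 against 86 tags (2.27), 58 against 19 (3.81) and 58 against 37 (2.02, limits 1.34 to 3.19), and the last had the lowest fold of any member region. Without scaling of the tamoxifen tags it was no longer past the limit of the list. Sema6c and Sema7a had none.

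Ephrins, the ligands of the Eph receptors, had regions in 4 of 7 genes. Their 15 regions had a median fold of 4.93, and 13 reached a fold of 4. Efna2 had 4 regions in 10.5 kb, or 27.5 per 100 kb. From the start onward they had 49 against 10 tags (5.80), 184 against 67 (3.55), 21 against 4 (5.43) and 54 against 10 (6.38). The second had the most oil tags of any member region, and the last (chromosome 10, 80189239 to 80190000), at 762 bp the widest of the members, ended 10 bp before the gene's far end. Efna5, a repulsive cue in the mapping of retinal axons, had 7 regions. The highest listed fold of any member region was there (chromosome 17, 62613156 to 62613375), with 44 tags in oil and 5 in tamoxifen, a fold of 9.35 (limits 4.59 to 37.3). The Sema4c region, whose fold is a lower bound, may exceed it. It was 1 of 4 regions within 13888 bp of the far end of a gene of 278 kb. The others of this group had folds of 4.93, 5.02 and 4.03, and the limits of the last (2.29 to 8.79) overlapped those of the 9.35-fold region. Efnb2, which marks arterial endothelium and binds Ephb4, had 2 regions toward its far end. They lay 1646 and 2874 bp from it, with folds of 5.55 (68 against 15 tags) and 4.22 (29 against 8). Efna3 had the region upstream of its start (chromosome 3, 89323471 to 89323692, 59 against 18 tags, fold 4.07, limits 2.50 to 7.74) and 1 inside the gene (29 against 9, fold 3.82), where the lncRNA gene Gm15998 overlaps. Its neighbours Efna1 and Efna4, and Efnb3, had none.

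Plexins are the receptors of semaphorins. Regions were present in 4 of 7, 9 in all, and none lay near a gene end. Plxna2, a receptor for class 6 semaphorins, had 4. Their folds were 4.79 (44 against 11 tags), 2.04 (71 against 45), 7.41 (29 against 4) and 4.64 (39 against 10). The first 2 lay 918 bp apart. The limits of the second (1.40 to 3.08), the lowest fold of the 4, did not reach those of the third (3.34 to 37.2), the highest. That pair was picked with its values seen, and the limits cover counting error only. Plxnb1, the receptor of Sema4d, had 3 in 26.1 kb, or 9.98 per 100 kb, the strongest with 32 against 5 tags (chromosome 9, 109103988 to 109104255, fold 6.86, limits 3.25 to 27.6). Plxnc1, the receptor of Sema7a, had 1 with 23 oil and 2 or fewer tamoxifen tags (fold 7.74, again resting on the genome mean). Plxnd1, which binds Sema3e directly, had 1 of 3.48-fold (37 against 13). Plxna1, Plxna4 and Plxnb2 had none.

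EphA receptors mostly bind A-type ephrins. Regions were present in 7 of 9, 15 in all, with folds of 2.45 to 6.28 and a median of 4.14. Epha6, the longest member at 969 kb, had only 4, of 3.68-fold to 5.21-fold. Epha4, which binds both types of ephrin, had 3. Of these, 2 lay toward the far end, 1935 and 6529 bp from it, with 51 against 10 tags (6.03) and 41 against 11 (4.47). The other lay 7952 bp inside the start with 65 against 34 (2.45, limits 1.63 to 3.92). The highest listed fold of the class was in a region 942 bp beyond the far end of Epha1 (chromosome 6, 42357299 to 42357545, 34 against 6 tags, fold 6.28, limits 3.08 to 21.7) and lay within the neighbouring gene Zyx, which encodes the adhesion protein zyxin. Epha8 had 2 regions, one of 4.59-fold with 126 against 35 tags. The other had 16 oil tags, the fewest of any member region, with 2 or fewer tamoxifen tags. Its listed fold of 5.48 is a lower bound and would be 6.73 with exactly 2 tags, above that of the Epha1 region. Epha2, expressed widely in epithelia, had 2 (3.46-fold and 3.94-fold), Epha10, whose kinase domain is inactive, 2 (2.97 and 4.14), and Epha5 1 (3.41). Epha3 and Epha7 had none.

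EphB receptors bind B-type ephrins. Regions were present in 4 of 5, and with 27 regions they held the most regions. Their density of 3.85 per 100 kb was next to that of the ephrins (3.84). Class 4 semaphorins had 2.38, class 5 to 7 semaphorins 1.10, plexins 0.935, EphA genes 0.715 and class 3 semaphorins 0.694, beside 2.33 over all genes. The groups differ in length, with medians of 155 kb in class 3, 148 kb in EphA and 9.22 kb in ephrin genes. Over all genes the density was 3.44 under 20 kb and 1.62 at 100 kb or more, so this order is not separated from length. Ephb2 had 11 regions in 189 kb. With the gene divided into 3 equal parts from the start, the 5 regions of the last part had folds of 2.98 to 3.67, while the other 6 ranged from 2.48 to 5.82 with a median of 4.86. The best covered of these (chromosome 4, 136785077 to 136785341) had 98 tags in oil and 21 in tamoxifen, a fold of 5.82 (limits 3.79 to 10.3). The best covered of the last part (136672187 to 136672456) had 86 and 37, a fold of 2.98 (limits 2.05 to 4.61), so the counting limits of the 2 overlapped. The region upstream of the start (136837954 to 136838292) lay 1942 bp from it, over the lncRNA gene Gm31536. Ephb1 had 9 regions in 433 kb, 6 of them in the first of 3 equal parts. The strongest (chromosome 9, 102348609 to 102348817, 33 against 6 tags, fold 6.10, limits 2.98 to 21.1) was 5876 bp from the start, and the best covered (102316155 to 102316465) had 149 against 34 (fold 5.57, limits 3.94 to 8.61). Ephb4, the venous partner of Efnb2, had 5 regions in 24.4 kb, or 17.6 per 100 kb, with folds of 3.19 to 5.22. Ephb3 had 2 toward its far end, with 103 against 46 tags (2.88) and 67 against 23 (3.67). Ephb6, which lacks kinase activity, had none.

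**Figure D3:**
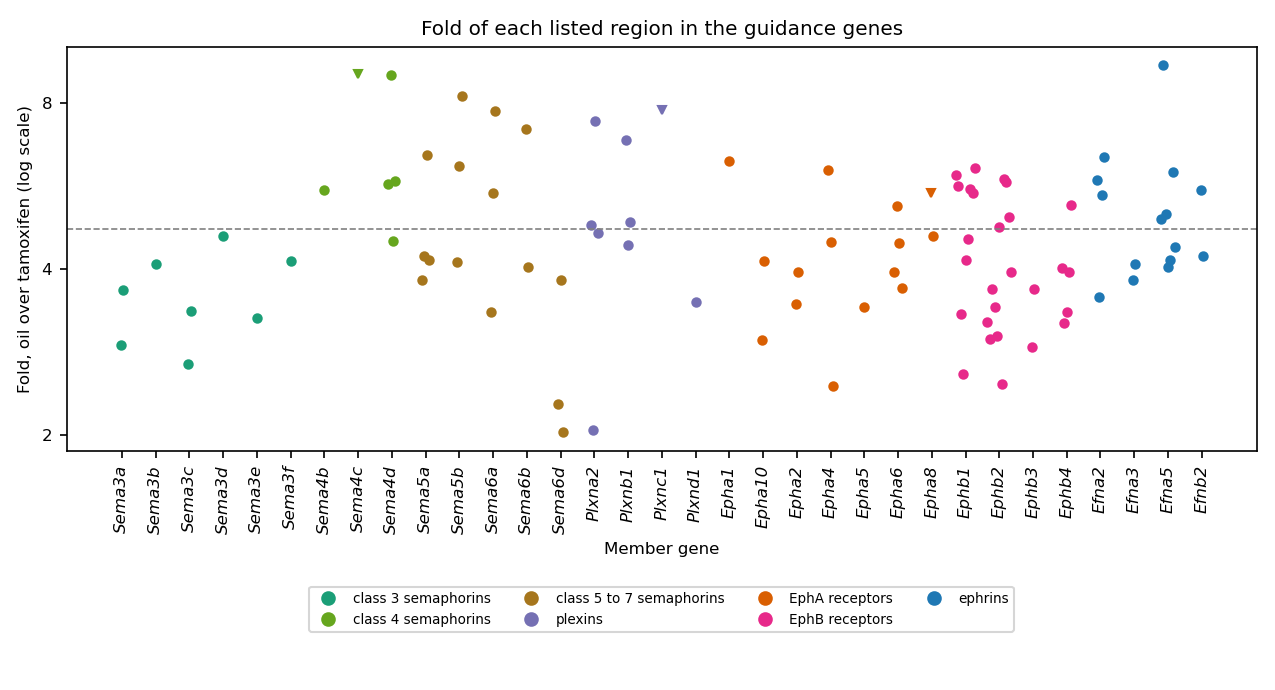
Fold of oil over tamoxifen (vertical axis, log scale) for every region, by gene and coloured by group. Triangles are the 3 regions with 2 or fewer tamoxifen tags, and the dashed line is the median of 4.71 over all genes. All class 3 semaphorin points lie under the line, and the EphB genes hold the most points.

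Ligand and receptor genes as a whole gave these counts, without a test of their difference. Of 27 ligand genes 18 had a region, with 44 regions and a median fold of 4.31. Of 21 receptor genes 15 did, with 51 regions and a median of 4.15. Of all protein-coding genes 47.1% had one, a share that rose with gene length, and these counts were not matched for length. A few known pairs are given as examples, picked with their values seen. They do not bear on pairing, since 68.8% of all members had a region, and pairing was not tested. Both Sema4d and Plxnb1 had regions, of up to 8.97-fold and 6.86-fold, and both Efnb2 and Ephb4 did, of up to 5.55-fold and 5.22-fold. Plxnc1 had a region while its ligand Sema7a had none.

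Regions near gene ends lay mostly at the end opposite the start. Within 2000 bp of either end, 11 of 48 members (22.9%) had a region, against 19.2% of all genes. The count depends on the distance, since within 5000 bp of an end 22 members did, against 36.7% of all genes. Of the 42 members with a placed start, 2 had one within 2000 bp of a start, Efna3 and Ephb2, against 8.6% of all such genes. At the far end 8 of the 42 did, against 13.7% of all such genes. These were Efna2, Efna5, Efnb2, Epha1, Epha4, Ephb3, Sema4b and Sema6b. Among all genes too, the far end held a region more often than the start.

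Along the gene bodies the last part held the most regions. Of 87 regions with their midpoint inside a member with a placed start, 24 (27.6%) lay in the first of 3 equal parts of the gene, 19 (21.8%) in the middle part and 44 (50.6%) in the last. Over all 18513 such placements the shares were 26.1%, 31.5% and 42.4%. In members under 20 kb none of 10 regions lay in the first part, against 21.8% over all genes of that length, and in those of 20 to 100 kb 2 of 18 did (11.1% against 25.5%). In members of 100 kb or more the first part held more than its background share, 22 of 59 (37.3% against 28.4%), of which Ephb1 contributed 6. The last part still held the most regions there, 28 of 59 (47.5% against 42.1%). A gene's boundary is its outermost annotated base, so in Sema3a and Sema4d regions counted in the first part lay upstream of the placed starts. The annotation used gives gene ends without exons, so exon, intron and UTR were not resolved.

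**Figure D4:**
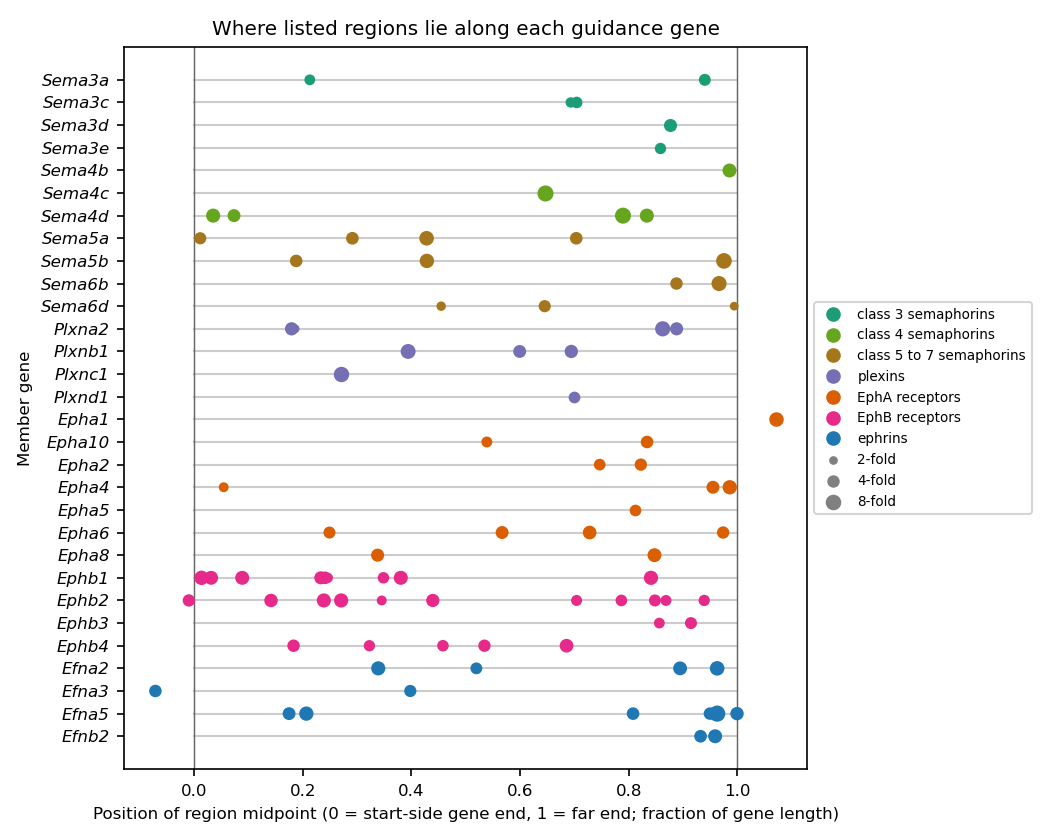
Position of each region's midpoint along its gene (horizontal axis, 0 at the gene boundary on the start side and 1 at the far end, as a fraction of gene length), 1 line per gene, with larger points for higher folds. Points gather toward 1, as in Efnb2, Ephb3 and Sema6b, while those of Ephb1 gather toward 0.

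For the 15 members without a region, the nearest listed region was 2.0 kb (Sema4a) to 253.4 kb (Epha3) away. It was within 10 kb for Sema4a, Efnb3, Sema4g, Sema4f and Efna4, and over 60 kb away for Plxna4, Ephb6, Plxna1 and Epha3. Among these 15 genes Plxna4 (444 kb), Epha3 (321 kb) and Epha7 (154 kb) belong to the length class in which 87.5% of all genes had a region.

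Genes that act with these receptors were counted alongside. Of 34 co-receptors and intracellular partners, 27 had a region (79.4%, against 47.1% of all genes), with a median gene length of 110 kb. Of 20 among them of 100 kb or more 19 did, near the 87.5% of all genes of that length. The exception was Nrp1, the neuropilin that Sema3a requires, while Nrp2, used by Sema3f, had 1 region of 4.63-fold (53 against 14 tags). Shares of genes with a listed fold of 8 or more were not matched for gene length, and these partners are long. Such a region was held by 6 of the 34, against 7.89% of all genes of any length. These were Vav2, an exchange factor that acts after Eph receptors (11.3-fold, 36 against 3 tags), the kinase gene Fes, which acts after Sema3a (10.1-fold, 94 against 11, limits 5.98 to 23.2), and Chn1, whose product alpha-chimaerin mediates Epha4 signalling (9.36-fold, 28 tags against 2 or fewer). Dpysl5, of the collapsin response mediators, had one of 8.82-fold (28 against 3), and the exchange factor gene Arhgef12 and the flavoprotein monooxygenase gene Mical3 each one of 8.07-fold (24 tags against 2 or fewer). Most regions were in the Rac exchange factor gene Tiam1 (27) and in Mical3 (22), more than in any of the 48 guidance genes.

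Of 21 genes of the slit, netrin and repulsive guidance molecule systems, 16 had a region (76.2%, against 47.1% of all genes). All 12 of 100 kb or more did, against 87.5%, and none of the 4 under 20 kb did, against 28.3%. Robo1, a slit receptor, had 11 with a highest fold of 9.13 (36 against 4 tags, limits 4.23 to 45.6), and the netrin gene Ntn4 had 6 with a highest of 9.12 (29 against 3). The median fold was 4.88 over the 50 regions of these genes and 4.63 over the 116 of the partners, both above the 4.22 of the guidance genes, without a test.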

How the data were processed

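Per the labels' protocols, genomic DNA was sheared, separated with an MBD2-based kit and made into libraries of 250 to 350 bp fragments. The submitters' processing notes name Trim Galore, HISAT2 and mm10. The authors, per the file headers, called regions with MACS 2.2.6, oil as treatment and tamoxifen as control, on 19534328 and 25614791 tags after duplicate removal, with tags extended to 201 bp, the larger library scaled and a q limit of 1e-04. The list's own name gives the opposite order; the command line was followed. The deposited pileup is a signal (extended oil tags over the summit). The deposited fold is a ratio with 1 added to both sides. The deposited -log10 p and -log10 q columns had lost their headings and were read by their place.

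Tamoxifen tags were recomputed from pileup, fold and the library factor of 0.763, and came out whole within 0.02 in 97.5% of regions. In the other 980 the caller's genome mean was reached, which means 2 or fewer tags. The p values recomputed from them differed by at most 0.000173 on the -log10 scale. The 95% limits given are Clopper-Pearson (exact) ones for the scaled tag ratio. They cover counting error only, and summits are chosen where oil is high, so folds lean upward. Genes and starts come from RefSeq GRCm38.p6, the primary assembly of mm10, and 42 of 48 members matched a promoter window. Efnb3, Plxna1, Plxna4, Sema3b, Sema3f and Sema6a did not. Overlap of 1 bp counted, and the overlap code was tested on simulated data. Python 3.11.15, pandas 2.3.3 and SciPy 1.17.1 were used.

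Members and lists were chosen with earlier results of these data known. Named were, in each group, the region of highest fold and the gene with most regions, members with a region near a start, the 5 with most regions per 100 kb, members with none, and pathway genes with a fold of 8 or 8 regions. Other members are described beyond that rule, with their values seen. Alternatives were the q limit, the flank, the overlap and the scaling.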

Additional observations from a re-analysis of the deposited data

How the results depend on the processing

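The count of members with a region was 33 and stayed between 30 and 35 under the 7 alternatives (q limits of 1e-06 and 1e-10, no flank, a 5000 bp flank, the summit inside the extended gene, 100 bp of overlap, and unscaled tamoxifen tags). The count of regions was 95 and ran from 68 at a q limit of 1e-10 to 103 with a 5000 bp flank, and the 43 pathway genes with a region kept that number throughout. The median fold of 4.22 became 4.77 at a q limit of 1e-10, which keeps stronger regions by construction, and 3.50 with unscaled tags. Members with a region near a gene end rose in number from 11 to 22 when near meant 5000 bp, while the share of all genes rose from 19.2% to 36.7%. With unscaled tags 6 of the 95 regions were no longer past the list's limit, in Epha10, Ephb1 (2), Ephb2, Plxna2 and Sema6d. No paired analysis was possible because each group has 1 library. Regions with few tags have wide limits, so their rank among members is not resolved.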

Other observations

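The 3 genes of these families on chromosome X were outside the rule. Plxna3, a semaphorin receptor gene, had 1 region (74335345 to 74335766) with 58 oil and 13 tamoxifen tags, a fold of 5.41 (95% counting limits of the tag ratio 3.17 to 11.6). Plxnb3 and the ephrin gene Efnb1 had no region within 2000 bp of the gene.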
